A study of Aspergillus nidulans with 6 samples.

Results

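The genes described here are expressed genes of *Aspergillus nidulans* whose RNA was at least 4 times lower after salt in every strain of the study. They were chosen by the measured values themselves. A gene had to have at least 5 RPM (scaled reads per 1000000 reads) in the 3 libraries without salt, at least 1 in the 3 libraries with salt, and a salt to control ratio of at most 0.25 in each strain. Of the 10957 genes listed, 83 met the rule. The minima alone were met by 6724 genes, of which the 83 are 1.23%.

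The 6 libraries were Δ*cnaB*Δ*cchA* (strain LXA05), Δ*cnaB* (WSA08) and the parent (TN02A7), each with 800 mM NaCl for 30 min and each without NaCl, 1 library per condition. The cultures had grown for 18 h at 37°C in liquid minimal medium with glucose and nitrate salts before the salt was added. TN02A7 carries *pyrG89*, *riboB2*, *pyroA4*, *nkuA*::*argB2* and *veA1*. In WSA08 *cnaB* is replaced by *pyrG*, and the labels give all the other alleles of the parent. In LXA05 *cnaB* and *cchA* are both replaced by *pyrG*, and of the other alleles the labels name *pyrG89*, *nkuA*::*argB2* and *veA1* but not *riboB2* or *pyroA4*. The genes *cnaB* and *cchA* code for the regulatory subunit of calcineurin and for a calcium channel. Each strain is a single isolate, and all 3 share the *pyrG89*, *nkuA*::*argB2* and *veA1* alleles.

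Nitrate is taken up by fungal hyphae through a membrane transporter, reduced to nitrite and then to ammonium, and built into glutamine. In *A. nidulans* the genes for the transporter and both reductases lie close together, and their transcription needs nitrate and is shut down by ammonium. Citrate exported from mitochondria is split by ATP citrate lyase into acetyl-CoA, from which fatty acids and, by way of mevalonate, sterols are made. Mevalonate also supplies part of the siderophores with which the fungus takes up iron. Genes of each of these processes were among the 83.

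Some facts of the libraries bear on these values. The recovered reads (the deposited values divided by the value of 1 read) numbered 41369564 to 50006318 per library, and the smallest value of the 83 genes in a salt library stood for 38 to 51 reads. Both deletion strains had *cnaB* at 0 with and without salt, against 73.6 and 86.2 RPM in the parent. The gene *cchA* had 3.96 and 3.56 RPM in Δ*cnaB*Δ*cchA* with and without salt, against 136 and 74.1 RPM in the parent. The labels name conidia as the source, while *dewA*, a spore wall hydrophobin gene, was listed at 0 in all libraries and *brlA*, the regulator that starts spore formation, reached at most 4.68 RPM. Of the 8 spore genes looked for, 7 were found, and their summed level was 280 to 320 RPM with salt and 31.8 to 53.4 RPM without it. The spore laccase gene *yA* gave 227 to 236 RPM with salt and 12.5 to 14.3 RPM without it. Over the strains *yA* and *vosA* were called higher with salt by limma, *wetA* lower and 3 genes not at all. Among all genes tested 28.7% were called higher with salt and 26.6% lower. Of 7 genes listed for hyphal growth, *chsA* and *chsB* were found, both called higher. Whether either of them marks hyphae and not spore-forming cells was not tested. The part of such cells in the lower values of the 83 genes was not tested. In such bulk samples fewer cells of a type and less RNA per cell cannot be told apart.

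As a group, the 83 genes took 0.430% of the Δ*cnaB*Δ*cchA* library, 0.262% of the Δ*cnaB* library and 0.294% of the parent library with salt, against 3.04%, 2.60% and 2.53% of the libraries of the same strains without salt. Their summed values were 6.01 times lower with salt in Δ*cnaB*Δ*cchA*, 8.02 times lower in Δ*cnaB* and 7.38 times lower in the parent. The median gene had 9.45, 6.37 and 10.1 RPM with salt in Δ*cnaB*Δ*cchA*, Δ*cnaB* and the parent, against 62.6, 58.1 and 75.4 RPM without it. Single genes spanned a wide range, from 5.15 to 7654 RPM without salt. In 78 of the 83 genes the highest salt value of any strain was below the lowest control value of any strain, against 25.5% of the genes that met the minima. The exceptions were AN1659, AN3321, AN6952, AN7539 and AN8609, which were all called different between the deletion strains and the parent. The separation of salt and control values follows largely from the rule, which set a ratio of at most 0.25 in each strain. It is not a separate result about these genes.

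**Figure D1:**
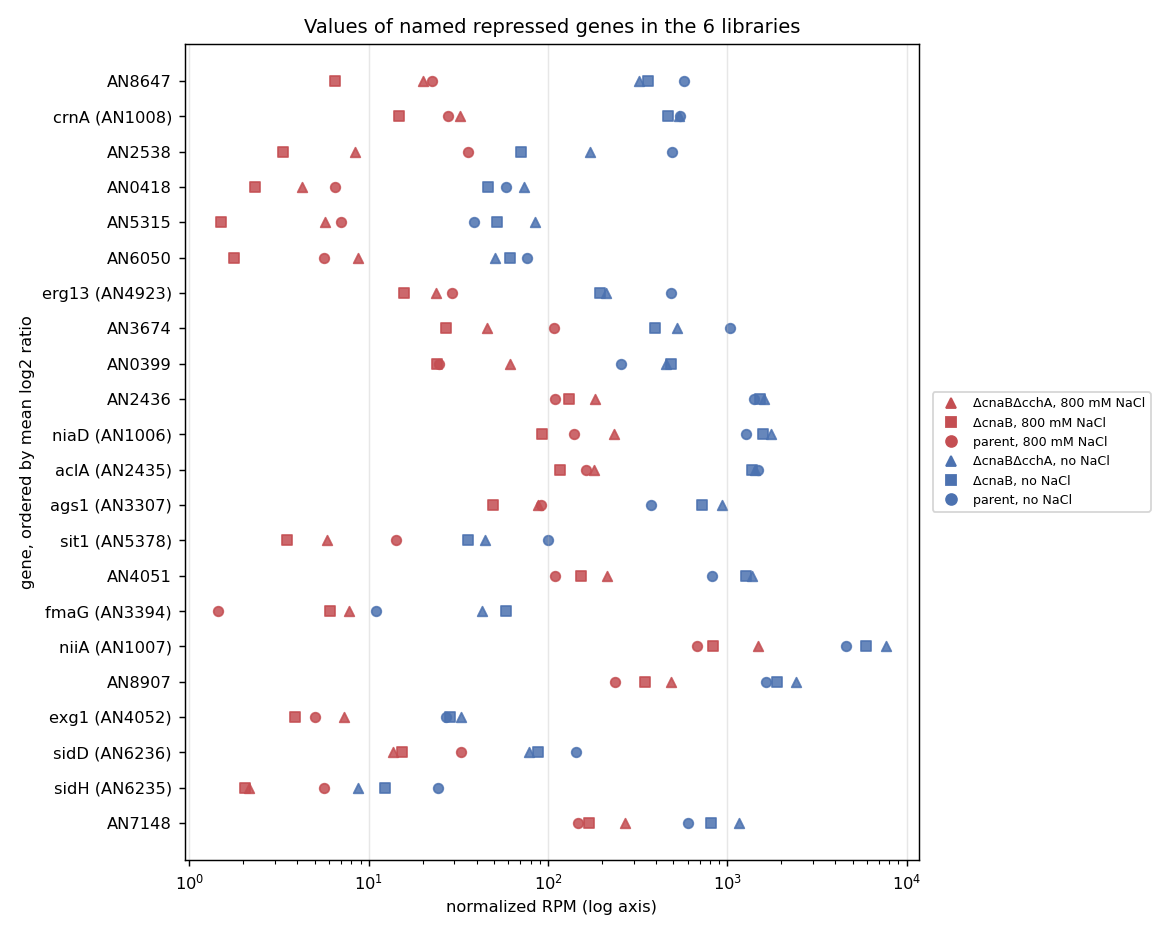
Normalized RPM (log axis) of the genes with a symbol, the 10 genes with the smallest mean ratio and the 5 with the most control RPM per kb, 1 point per library, with colour for salt (red) or no salt (blue) and shape for strain. In every row the 3 salt points lie left of the 3 control points, as in *crnA* with 14.7 to 32.1 RPM with salt and 466 to 544 RPM without it.

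The nitrate genes were among the most abundant of the set. The gene *crnA* (AN1008), which codes for a nitrate transporter, had 32.1, 14.7 and 27.5 RPM with salt in Δ*cnaB*Δ*cchA*, Δ*cnaB* and the parent, against 536, 466 and 544 RPM without salt. It was 16.7, 31.8 and 19.8 times lower in these strains, the smallest mean ratio of the 83 after that of AN8647. The gene *niaD* (AN1006), for nitrate reductase, had 234, 92.1 and 139 RPM with salt and 1751, 1588 and 1267 RPM without it in the same order of strains. The gene *niiA* (AN1007), for nitrite reductase, had 1475, 829 and 678 RPM with salt and 7654, 5911 and 4598 RPM without it. The salt and control values of each gene are far apart in every strain, and the transporter gene had the smallest ratio of the 3 in every strain. With salt *niiA* alone made up 31.7%, 28.5% and 21.4% of the summed values of the 83 genes in Δ*cnaB*Δ*cchA*, Δ*cnaB* and the parent.

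Other genes for nitrogen use changed less. The list of nitrogen genes held 32 symbols, of which 11 were found in the gene table and tested for salt against control over the 3 strains with limma (strain and treatment as terms, Benjamini-Hochberg adjusted *P* value under 0.05 over 8673 genes). None was called higher with salt and 6 were called lower, against 28.7% and 26.6% of all genes tested. The lower 6 include the 3 nitrate genes, which were chosen on this same contrast. The others were *glnA* (AN4159), for glutamine synthetase, *gatA* (AN2248), for GABA transaminase, and *azgA* (AN8534), for a purine transporter. The gene *glnA* had 2609, 2412 and 2432 RPM with salt in Δ*cnaB*Δ*cchA*, Δ*cnaB* and the parent, against 5734, 5352 and 4169 RPM without it (log2 fold change -1.02, limma adjusted *P* = 0.0051). The regulator genes *areA* and *nirA* had ratios of 0.804 to 1.03 and 0.603 to 1.14 and were not called. The genes *prnB*, *prnC* and *prnD*, for proline use, were also not called.

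The genes at the start of fatty acid and sterol synthesis also had high control values. The gene *aclA* (AN2435), for a subunit of ATP citrate lyase, had 181, 117 and 162 RPM with salt in Δ*cnaB*Δ*cchA*, Δ*cnaB* and the parent, against 1422, 1365 and 1485 RPM without it. Its direct neighbour AN2436, which has no symbol in the gene table, had 183, 131 and 109 RPM with salt and 1598, 1516 and 1412 RPM without it. The pair had like control levels in every strain, and the ratios of the pair ran from 0.0774 to 0.128. The gene *erg13* (AN4923), named after the yeast gene for HMG-CoA synthase of the mevalonate pathway, had 23.7, 15.8 and 29.1 RPM with salt and 211, 194 and 487 RPM without it.

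Further genes from the list of sterol and lipid synthesis bracket these values. Of 16 symbols 4 were found and tested. With salt 3 of them were called lower and 1 higher, against 26.6% and 28.7% of all genes tested. Apart from *aclA*, the lower ones were *erg1* (AN11008), for squalene epoxidase, and *erg6* (AN7146), for sterol methyltransferase. The gene *erg1* had ratios of 0.186 for Δ*cnaB*Δ*cchA*, 0.129 for Δ*cnaB* and 0.274 for the parent, so the parent alone kept it out of the set. For *erg6* the ratios were 0.468, 0.478 and 0.220. The gene *hmg1* (AN3817), for HMG-CoA reductase, the step after HMG-CoA synthase, was called higher, with 132, 152 and 187 RPM with salt and 61.3, 81.5 and 151 RPM without it (log2 fold change 0.77, limma adjusted *P* = 0.024). The product of *erg13* and that of *hmg1* act in turn in 1 pathway, and their salt and control values lie in opposite order in each strain.

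Iron uptake was represented by *sit1*, *sidD* and *sidH*. The gene *sit1* (AN5378) is named after a yeast siderophore transporter gene and had 5.84, 3.52 and 14.2 RPM with salt in Δ*cnaB*Δ*cchA*, Δ*cnaB* and the parent, against 44.6, 35.6 and 99.9 RPM without it. The gene *sidD* (AN6236), for a nonribosomal peptide synthetase that joins siderophore building blocks in *Aspergillus fumigatus*, had 13.7, 15.2 and 32.7 RPM with salt and 77.9, 88.5 and 143 RPM without it. Next to it lie *sidH* (AN6235), which in *A. fumigatus* makes a mevalonate-derived building block, with 2.15, 2.04 and 5.64 RPM with salt and 8.66, 12.4 and 24.2 RPM without it, and AN6234, with 3.96, 2.51 and 8.90 RPM with salt and 17.4, 30.1 and 49.1 RPM without it. All of these genes had their highest salt value and their highest control value in the parent.

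The cell wall was represented by *ags1* and *exg1*. The gene *ags1* (AN3307), whose name stands for an alpha-glucan synthase in fission yeast, had 88.3, 49.2 and 91.4 RPM with salt in Δ*cnaB*Δ*cchA*, Δ*cnaB* and the parent, against 934, 727 and 376 RPM without it. The parent was thus lowest without salt and highest with it, and the gene was 10.6, 14.8 and 4.11 times lower in the 3 strains. The gene *exg1* (AN4052), named after a yeast glucanase gene, had 7.30, 3.89 and 4.99 RPM with salt and 32.8, 28.5 and 27.0 RPM without it. The cell wall list holds neither of these symbols. It does hold *agsA* and *agsB*, which were not found by symbol, and whether *ags1* is one of them was not checked. Of the 17 symbols of the list 6 were found, all for chitin synthases. Among them *chsF*, *chsG* and *csmB* were called lower with salt and *chsA* and *chsB* higher, against 26.6% and 28.7% of all genes tested. No ratio of a gene of this list that met the minima was under 0.285. The last symbol of the set, *fmaG* (AN3394), used in *A. fumigatus* for a gene of the fumagillin cluster, had 7.80, 6.08 and 1.44 RPM with salt and 43.0, 58.1 and 11.03 RPM without it.

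With a symbol for 11 of the 83 genes, most of the set can be given by identifier only. The smallest mean ratio belonged to AN8647, with 20.1, 6.51 and 22.5 RPM with salt in Δ*cnaB*Δ*cchA*, Δ*cnaB* and the parent, against 321, 361 and 570 RPM without it. Its fold in Δ*cnaB*, 55.5 times lower with salt, was the largest of the set. Its 95% exact counting intervals of the log2 ratio were -4.10 to -3.90 for Δ*cnaB*Δ*cchA*, -5.98 to -5.61 for Δ*cnaB* and -4.76 to -4.57 for the parent. These intervals do not overlap, but they cover counting error only, and each rests on 1 pair of libraries.

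After AN8647 and *crnA* came AN2538, AN0418, AN5315, AN6050, *erg13*, AN3674, AN0399 and AN2436, with mean log2 ratios of -4.18 to -3.45. AN2538 had 8.41, 3.31 and 36.0 RPM with salt in Δ*cnaB*Δ*cchA*, Δ*cnaB* and the parent, against 171, 71.0 and 491 RPM without it. AN3674 had 45.4, 27.1 and 107 RPM with salt and 524, 394 and 1037 RPM without it. In both genes the parent was highest with and without salt. AN0399 had 61.3, 24.1 and 24.7 RPM with salt and 453, 486 and 255 RPM without it, so that here the parent was lowest without salt. Per kb of gene length, the highest mean control levels of the set were those of AN8907, *niiA*, AN4051, AN7148 and *aclA*, at 1842, 1581, 817, 793 and 746 RPM per kb. AN8907 had 484, 348 and 237 RPM with salt and 2410, 1893 and 1638 RPM without it, and in both treatments its order of strains was that of *niiA*.

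**Figure D2:**
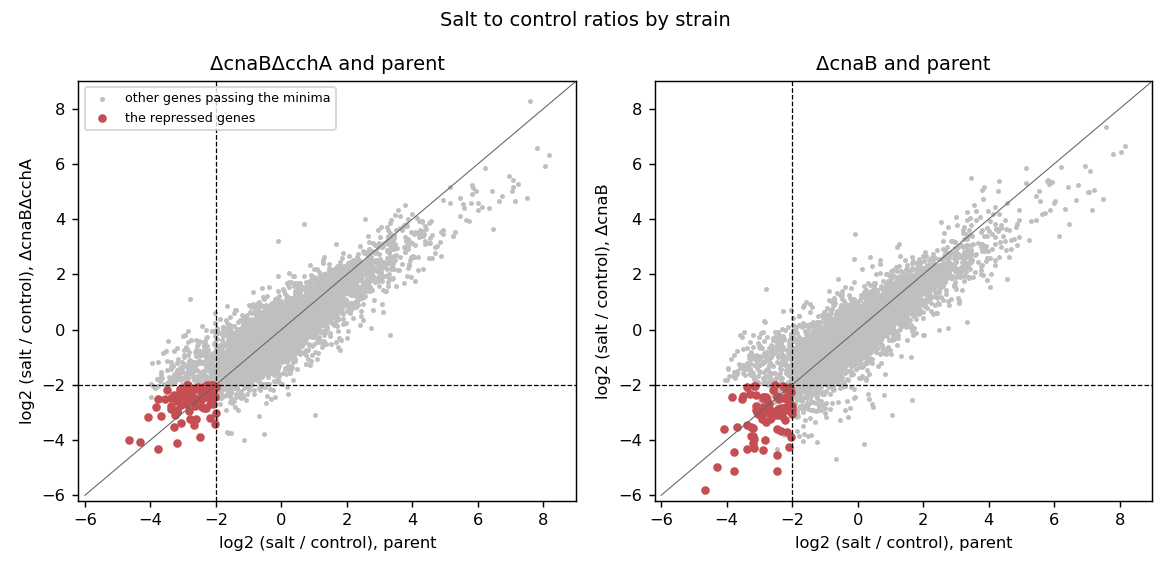
The log2 salt to control ratio of each gene in Δ*cnaB*Δ*cchA* (left panel) and in Δ*cnaB* (right panel) against the parent, for the 83 repressed genes (red) and the other genes that met the minima (grey), with dashed lines at the limit of -2 and a solid line of equal ratios. The red points fill the corner set by the rule.

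The 83 genes are a minority of the genes past the limit in any strain. Among genes that met the minima in a strain, a ratio of at most 0.25 was found for 235 genes (3.29%) in Δ*cnaB*Δ*cchA*, for 325 genes (4.55%) in Δ*cnaB* and for 370 genes (5.19%) in the parent. The set is 35.3%, 25.5% and 22.4% of these genes. A group that shows what the rule leaves out is ribosome assembly, of which 20 of 45 listed symbols were found and none was among the 83. Of these 20 genes 2 had a ratio of at most 0.25 for Δ*cnaB*Δ*cchA*, 0 for Δ*cnaB* and 15 for the parent, with median ratios of 0.452, 0.548 and 0.123. The control values differed as well, summing to 475 RPM for Δ*cnaB*Δ*cchA*, 564 RPM for Δ*cnaB* and 1422 RPM for the parent. Over the strains 13 of the 20 were called lower with salt by limma and none higher, against 26.6% and 28.7% of all genes tested. For *nop58* (AN3167), named after a yeast gene for a snoRNP protein, the values were 31.8, 45.4 and 28.9 RPM with salt and 106, 122 and 281 RPM without it in the 3 strains.

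Of 14 osmotic stress symbols 6 were found, of which *sakA*, *atfA*, *gldB* and *treA* were called higher with salt, *hsp70* lower and *sskA* not at all. Over all genes tested, 28.7% were called higher with salt and 26.6% lower. For *gldB* (AN5563), for a glycerol dehydrogenase, the values were 4703, 5209 and 5295 RPM with salt in Δ*cnaB*Δ*cchA*, Δ*cnaB* and the parent, and 656, 649 and 564 RPM without it (log2 fold change 3.03, limma adjusted *P* = 0.00084). The lists of sugar and other uptake and of secondary metabolism had 2 and 1 genes found, too few to describe. Of the uptake genes *mirB* was called lower and *mirC* was not called, and *laeA* of secondary metabolism was not called.

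The depth of the fall differed between the strains. The median ratio of the 83 genes was 0.178 for Δ*cnaB*Δ*cchA*, 0.132 for Δ*cnaB* and 0.158 for the parent, that is, 5.61, 7.55 and 6.33 times lower with salt. The smallest ratio of a gene was in Δ*cnaB*Δ*cchA* for 10 genes, in Δ*cnaB* for 50 and in the parent for 23, and the largest ratio was in these strains for 41, 11 and 31 genes. After division of each library by its total, the numbers of smallest ratios were 8, 55 and 20, and with one trimmed mean of M values over all 6 libraries 10, 49 and 24. Of 691 genes that met the minima and had ratios under 0.5 in every strain, the smallest ratio was in Δ*cnaB*Δ*cchA* for 103, in Δ*cnaB* for 316 and in the parent for 272. The ratios chose the genes and each condition had 1 library, so these differences were not tested.

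**Figure D3:**
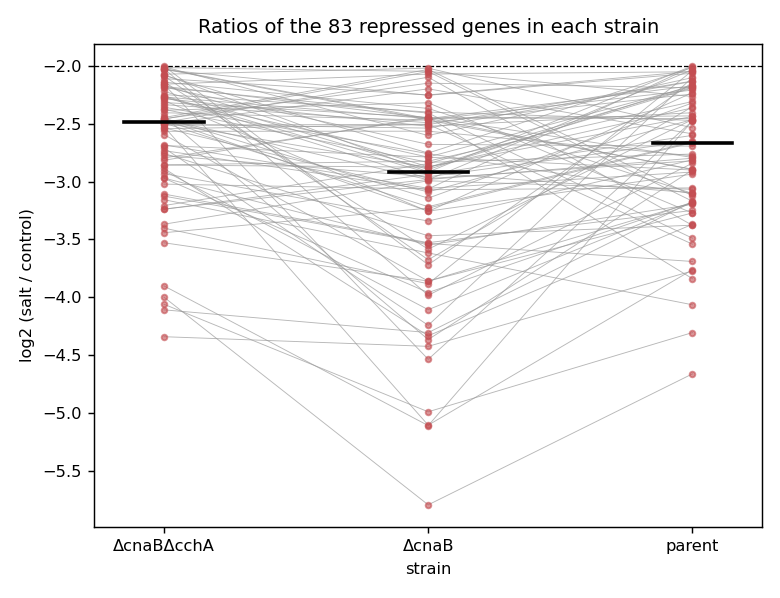
The log2 salt to control ratio (vertical axis) of the 83 genes in Δ*cnaB*Δ*cchA*, Δ*cnaB* and the parent, with 1 point per gene and strain, a thin line joining the points of a gene, a bar at the median and a dashed line at the limit of -2. The medians are -2.49, -2.92 and -2.66, and the longest lines dip in Δ*cnaB*.

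For 24 of the 83 genes the log2 ratio spanned more than 1 over the strains, and the 5 widest were AN5315, AN6050, AN2922, AN2951 and AN3520. AN5315 had 5.67, 1.51 and 6.97 RPM with salt in Δ*cnaB*Δ*cchA*, Δ*cnaB* and the parent, against 84.7, 52.1 and 38.7 RPM without it, or 15.0, 34.5 and 5.56 times lower. AN6050 had 8.76, 1.77 and 5.59 RPM with salt and 50.4, 61.0 and 75.9 RPM without it. In all 5 genes Δ*cnaB* had the smallest ratio and the lowest salt value. In 4 of them that salt value was under 2 RPM, close to the limit of 1 under which the files list 0. AN2951 was the exception, with 47.2, 24.5 and 28.5 RPM with salt and 309, 464 and 122 RPM without it.

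At the edge of the rule, the largest ratios inside it were those of AN7866, AN6960 and AN3638. AN7866 had a ratio of 0.237 for Δ*cnaB*Δ*cchA*, 0.132 for Δ*cnaB* and 0.24998 for the parent. AN6960 had 0.2497 in Δ*cnaB*Δ*cchA* and AN3638 had 0.249 in the parent as their largest. Just outside it were AN0608, with 0.2501 in Δ*cnaB*, AN3181, with 0.2502 in the parent, and AN0956, with 0.253 in Δ*cnaB*Δ*cchA*. The 95% exact interval of the largest ratio reached past 0.25 for 26 of the 83 genes, and for 36 with 50% of the reads. The edge of the set is thus within counting error for about that many genes.

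Some of the 83 genes were neighbours in the genome. Of the 80 genes found in the RefSeq gene table of assembly ASM1142v1, 12 (15.0%) lay directly beside another of the set, against 1.28% of the placed genes that met the minima. They formed 5 runs. These were *sidD*, *sidH* and AN6234, then *exg1* and AN4051, then AN2648, AN2647 and AN2646, then *aclA* and AN2436, and *niiA* and *niaD*. The gene *crnA* follows *niiA* after a single gene model, AN10143, which was not analysed here. Whether any of these genes overlap was not tested.

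**Figure D4:**
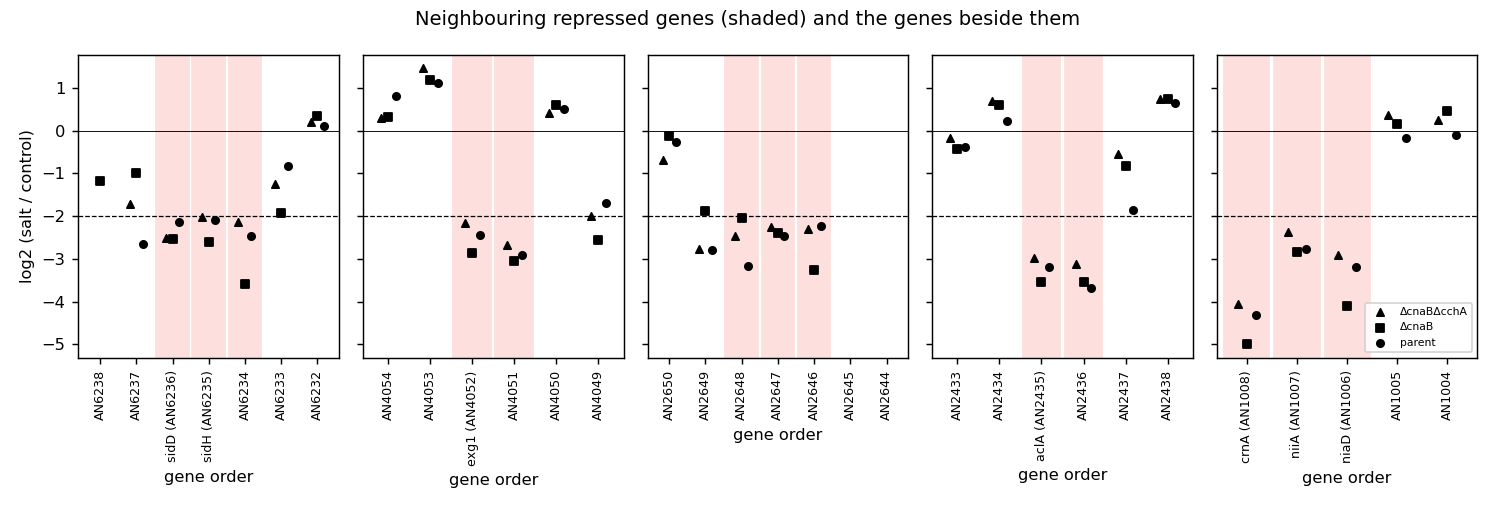
The log2 salt to control ratio (vertical axis) in each strain for the 5 runs of neighbouring repressed genes (shaded) and up to 2 genes on each side, in gene order, with a dashed line at the limit of -2. A ratio with a value listed at 0 has no point, and AN10143 between *crnA* and *niiA* was left out. Outside the runs the points of *crnA* lie lowest, and this gene is shaded too, since it belongs to the set. Those of several unshaded flanking genes, AN2649 and AN4049 among them, also lie below 0 in every strain.

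In the runs the genes differed in level as well as in ratio. AN4051 had 213, 153 and 109 RPM with salt in Δ*cnaB*Δ*cchA*, Δ*cnaB* and the parent, against 1368, 1274 and 824 RPM without it, while its neighbour *exg1* was under 33 RPM throughout. AN2646, AN2647 and AN2648 had 14.6, 5.69 and 5.02 RPM in Δ*cnaB*Δ*cchA* with salt, and 72.1, 27.0 and 27.6 RPM without it. The gene beside AN2648, AN2649, had ratios of 0.146 for Δ*cnaB*Δ*cchA*, 0.271 for Δ*cnaB* and 0.144 for the parent, so that Δ*cnaB* alone kept it out. The gene AN4049, 2 places from AN4051, had ratios of 0.251, 0.169 and 0.308. The genes beside *niaD* and *aclA* on the other side, AN1005 and AN2434, had ratios of 0.890 to 1.30 and 1.17 to 1.62.

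Whether the deletion strains had a different level of these genes from the parent, whatever the treatment, is a contrast that the rule did not use. It was fitted with limma over the 8673 genes that reached 1 RPM in 3 or more libraries, as the mean of Δ*cnaB*Δ*cchA* and Δ*cnaB* minus the parent, with treatment as a term. Loss of *cnaB* cannot be told apart here from the *pyrG* put in its place or from other differences between single isolates. For Δ*cnaB*Δ*cchA* the loss of *cchA*, and the *riboB2* and *pyroA4* alleles that the labels do not name, are mixed in as well. The spread in this fit is that of the salt response between strains, so the adjusted *P* values do not measure the spread between cultures of a strain. Of the 83 genes 10 (12.05%) were called higher and 20 (24.1%) lower in the deletion strains, against 6.33% and 15.2% of all genes tested. The remaining 53 were not called. The 83 genes all had at least 5 RPM without salt, while the genes tested include weaker ones. With a filter of 5 RPM in 3 or more libraries, 598 of 7406 genes were called higher and 1614 lower. Among the 83 genes the calls were then 12 and 25. The median log2 fold change was -0.30 over the 83 genes and -0.27 over all genes tested.

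The lower calls depend on how strains are scaled to each other. The deposited totals fit a scaling within each strain's pair of libraries. With one trimmed mean of M values over all 6 libraries the median over all genes was 0.02 and over the 83 genes 0.01. The calls were then 12 higher and 9 lower among the 83 genes, against 8.36% and 1.98% of all genes tested, and 19 of the 30 genes called on the deposited values were called again. None of the 30 changed its direction under any setting tried. With Δ*cnaB* left out the calls were 6 and 6, and with Δ*cnaB*Δ*cchA* left out 0 and 3. Fits without a strain have fewer residual degrees of freedom, and over all genes these 2 gave 376 and 50 calls, against 1870.

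The 5 genes furthest down in the deletion strains were AN7539, AN8609, AN3321, AN2538 and AN6787. AN7539 had 5.69, 1.88 and 41.4 RPM with salt in Δ*cnaB*Δ*cchA*, Δ*cnaB* and the parent, and 29.2, 12.7 and 356 RPM without it. Its log2 fold change was -3.91 ± 0.21 (SE, limma adjusted *P* = 0.0045). AN8609 had 17.9, 5.53 and 88.1 RPM with salt and 185, 44.0 and 738 RPM without it, with a log2 fold change of -3.08 ± 0.14 (limma adjusted *P* = 0.0031). The parent with salt was above both deletion strains without salt for AN7539, and above Δ*cnaB* without salt for AN8609. AN3321 fell to 1.26 and 1.22 RPM with salt in Δ*cnaB*Δ*cchA* and Δ*cnaB*, against 6.61 RPM in the parent, and had 7.15, 5.58 and 39.7 RPM without salt. AN2538 and AN6787 had log2 fold changes of -2.45 ± 0.18 and -1.77 ± 0.18 (limma adjusted *P* = 0.0091 and 0.017). With Δ*cnaB*Δ*cchA* left out, AN3321 and AN6787 lost their calls (limma adjusted *P* = 0.081 and 0.079), with the same direction, and the other 3 kept theirs.

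The 5 furthest up were AN6952, AN1659, AN6932, *fmaG* and AN1181. AN6952 had 18.9, 14.9 and 1.82 RPM with salt in Δ*cnaB*Δ*cchA*, Δ*cnaB* and the parent, and 104, 118 and 7.44 RPM without it, with a log2 fold change of 3.51 ± 0.25 (limma adjusted *P* = 0.0087). AN1659 had 53.9, 34.4 and 9.56 RPM with salt and 347, 238 and 43.2 RPM without it, a log2 fold change of 2.44 ± 0.18 (limma adjusted *P* = 0.0087). In both, the deletion strains with salt were above the parent with salt, and for AN6952 above the parent without salt too. AN6932, *fmaG* and AN1181 had log2 fold changes of 2.30, 2.17 and 1.72. With Δ*cnaB*Δ*cchA* left out, the calls of all 5 were lost (limma adjusted *P* of 0.051 to 0.084), with the same direction. Their log2 fold changes were then 3.47, 2.15, 2.33, 2.19 and 1.42 in the order above. That fit has fewer residual degrees of freedom and gave 50 calls over all genes, against 1870.

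**Figure D5:**
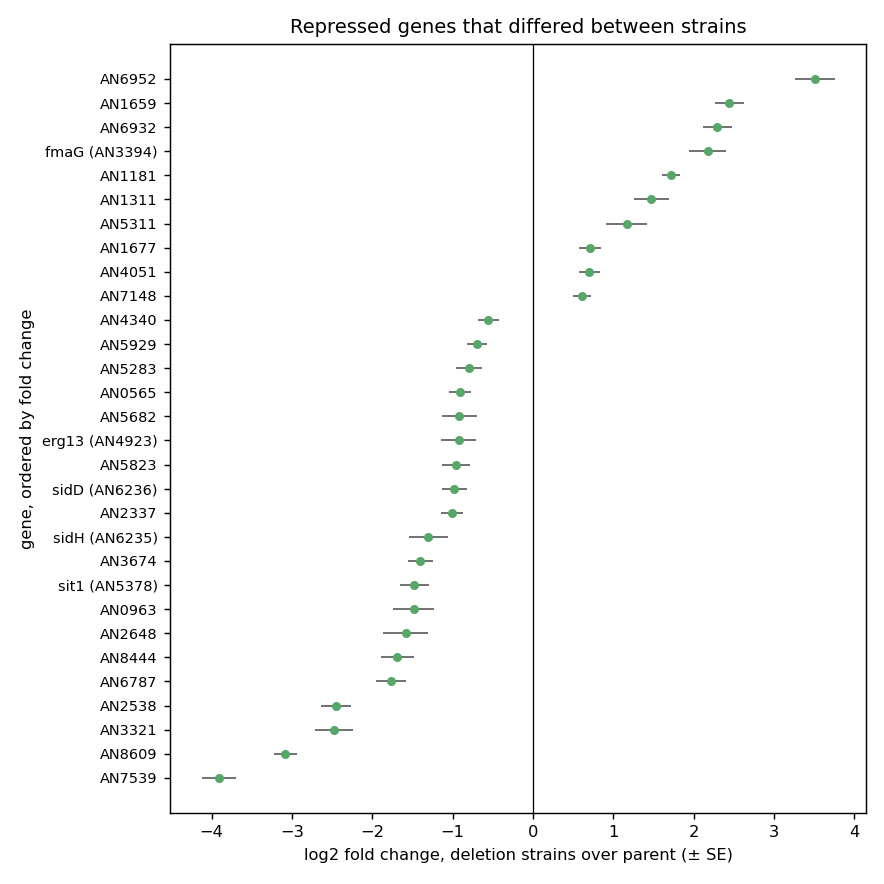
The log2 fold change of the deletion strains over the parent (horizontal axis, bars of 1 SE from limma, values as deposited) for the 30 repressed genes called at an adjusted *P* value under 0.05, with 20 genes left of 0 and 10 right of it. AN7539 at -3.91 and AN6952 at 3.51 are the ends of the range.

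Of the genes with a symbol, the iron genes *sit1*, *sidD* and *sidH* were called lower in the deletion strains, with log2 fold changes of -1.48 ± 0.18, -0.98 ± 0.15 and -1.30 ± 0.24 (limma adjusted *P* = 0.023, 0.028 and 0.033). The gene *erg13* was also called lower (-0.93 ± 0.21, limma adjusted *P* = 0.047). With the scaling over 6 libraries *sit1* was still called (-1.17, limma adjusted *P* = 0.030), while *sidD*, *sidH* and *erg13* were not, at -0.68, -1.003 and -0.62 (limma adjusted *P* = 0.057, 0.066 and 0.13). All 4 calls were lost with either deletion strain left out, for *sit1* with an adjusted *P* value in limma of 0.053 without Δ*cnaB* and 0.093 without Δ*cnaB*Δ*cchA*. The nitrate genes *crnA*, *niaD* and *niiA* were not called, with log2 fold changes of -0.23, 0.24 and 0.63 (limma adjusted *P* = 0.46, 0.54 and 0.051). The gene *niiA* passed the threshold with that other scaling, at 0.93 (limma adjusted *P* = 0.037). It also passed with a constant of 1 in place of 0.1 (limma adjusted *P* = 0.042). The same held with a filter of 5 RPM (limma adjusted *P* = 0.040) and with Δ*cnaB* left out. The genes *aclA*, *ags1* and *exg1* were not called, and *fmaG* was called higher.

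The contrast of Δ*cnaB*Δ*cchA* minus Δ*cnaB* was read in the same limma fit. The added loss of *cchA* cannot be told apart in it from the further *pyrG*, the *riboB2* and *pyroA4* alleles or other differences between the isolates. No gene was called higher or lower (0% of 8673 each way), and so none of the 83. At an unadjusted *P* value under 0.05 there were 316 genes in all and 16 of the 83. The log2 fold change was above 0 for 66 of the 83 genes, with a median of 0.37, against -0.01 over all genes tested. It averages salt and control, so it takes in part of the difference of the log2 ratios, and the ratios chose the genes. That difference, Δ*cnaB*Δ*cchA* minus Δ*cnaB*, had a median of 0.38 over the 83 genes and 0.0013 over the genes that met the minima. The largest fold change of the 83 genes was that of AN8609, at 1.87 ± 0.16 (limma adjusted *P* = 0.44). AN8609 had 17.9 RPM in Δ*cnaB*Δ*cchA* and 5.53 RPM in Δ*cnaB* with salt, and 185 and 44.0 RPM without it. Its unadjusted *P* value in limma, 0.00015, was the smallest of the 83 genes and did not pass the adjustment over all genes.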

How the data were processed

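The authors cleaned the reads of 6 libraries, aligned them to ASM14920v1 with TopHat, quantified genes with RSEM and applied TMM. The deposited signal has a heading that calls it read count but is not whole, and the values fit RPM (reads per 1000000) after TMM scaling within each strain's pair. No nonzero value is under 1, and genes left blank were taken as 0. All nonzero values (100% in each library) were whole multiples, within 0.1 of a read, of 1 step, taken as the value of 1 read. The recovered reads may count both ends of a pair, so the 95% exact (Clopper-Pearson) intervals, which cover counting error only, can be too narrow. They were repeated with 50% of the reads, an alternative added after seeing the data.

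Contrasts were fitted with limma 3.58.1 (R 4.3.3) to log2(value + 0.1) of the genes that reached 1 RPM in 3 or more libraries, with strain and treatment as terms and eBayes with trend (two-sided, 2 residual degrees of freedom, Benjamini-Hochberg adjustment over 8673 genes). Fold changes are on that scale, which understates changes of low values. The fit was also run on simulated data as a check of the code, which does not bear on how reliable the calls given here are. The genes and lists were chosen with earlier results of these data known. Named were genes with a symbol, the 10 smallest mean ratios, the 5 highest mean control values per kb, the 5 widest ranges of log2 ratio, the 5 genes called furthest each way in a strain contrast, the 3 genes on each side of the limit, and neighbours. Names, order and gene length (introns included, in place of the planned coding length) came from the RefSeq table of ASM1142v1, another build, so no coordinates are given. It matched 10029 identifiers. Flanking and list genes are named besides. Promoters and proteins were not analysed here.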

Additional observations from a re-analysis of the deposited data

How the results depend on the processing

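The set held 83 genes, and 36 with a ratio limit of 0.2, 149 with library totals (81 of the 83 among them) and 167 without the parent. Library totals shifted the median log2 ratio of the genes that met the minima by -0.23 for Δ*cnaB*Δ*cchA*, -0.31 for Δ*cnaB* and -0.22 for the parent. Under the other 8 settings it held 60 to 114 genes. For the deletion strains against the parent, the TMM over 6 libraries gave 171 lower calls over all genes and 9 among the 83, in place of 1321 and 20. Without a treatment term there were 25 higher and 1 lower over all genes, and 0 and 0 among the 83. Without Δ*cnaB* there were 219 higher and 157 lower over all genes, and 6 and 6 among the 83. Without Δ*cnaB*Δ*cchA* there were 31 higher and 19 lower over all genes, and 0 and 3 among the 83. The log2 fold change of *crnA* (AN1008), -0.23, was 0.072 with the TMM over 6 libraries and 0.10 without Δ*cnaB*, and that of *aclA* (AN2435), -0.12, was 0.18 and 0.050. Without Δ*cnaB*Δ*cchA*, *niaD* (AN1006) had -0.14 and *exg1* (AN4052) -0.14, in place of 0.24 and 0.13. None of these values passed the threshold, and the cause was not tested. For single genes, 137 values kept their direction and side of the threshold, 33 lost the call and 4 gained it. For Δ*cnaB*Δ*cchA* against Δ*cnaB*, a filter of 5 gave 1 lower call over all genes, and the other settings gave 0. The planned count test was not run, since values under 1 RPM are listed as 0 and the recovered reads were therefore not taken as a full count table. Salt and control were paired by strain through the strain term of the fit. Values listed at 0 below 1 RPM, more than depth, limit what can be seen of weak genes.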

Other observations

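A list of 14 siderophore symbols, added after the values of the set had been seen, held 9 genes that were found and tested, of which 7 were called lower with salt by limma over the strains and 0 higher, against 26.6% and 28.7% of all genes tested. Of the 7, *sit1*, *sidD* and *sidH* belong to the set and were chosen on this same contrast. The others were *sidI* (AN0609), *mirB* (AN8540), *sreA* (AN0176) and *hapX* (AN8251). The gene *mirB*, for a siderophore transporter, had 21.8, 18.8 and 32.2 RPM with salt in Δ*cnaB*Δ*cchA*, Δ*cnaB* and the parent, against 58.4, 97.6 and 234 RPM without it, so that its ratio of 0.373 in Δ*cnaB*Δ*cchA* kept it out of the set. The gene *sidI*, which in *A. fumigatus* acts in the same mevalonate branch as *sidH*, was listed at 0 with salt in both deletion strains, against 2.55 RPM in the parent, and had 2.87, 6.84 and 23.6 RPM without salt in the 3 strains. The peptide synthetase gene *sidC* (AN0607) and *mirC* (AN7485) were not called, and *sidC* had ratios of 0.444, 0.327 and 1.27 in the same strains.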
